A study of Mus musculus with 21 samples.

Results

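Reporter-negative CD4 T cells from culture with IL-12 alone were compared with those from culture in IL-1b+IL-6+IL-23. The comparison used 5 of the 21 libraries of the series, namely IL-12 GFPneg replicates 2 and 3 and IL-1b+IL-6+IL-23 GFPneg replicates 1 to 3. It covered the 8774 of 23415 rows of the table with at least 1 TPM (transcript abundance as a share of the library, corrected for transcript length) in at least 2 of these libraries. IL-12 GFPneg replicate 1 was left out because 4109 genes reached 1 TPM in it, under the minimum of 7000. All cells came from spleen and lymph nodes of Il23r wt/eGFP mice, whose ages are not given in the sources used here. These animals carry 1 intact copy of Il23r, the gene of the IL-23 receptor, and 1 copy in which eGFP was inserted and the receptor lost, in both groups alike. Naive cells (CD4+, CD25- and with low CD44) were activated by coated antibodies against CD3 and CD28 for 5 days. The IL-12 group received IL-12 at 20 ng/ml, and the other group received IL-6 at 25 ng/ml together with 20 ng/ml each of IL-23 and IL-1b. GFPneg cells are those in which eGFP was not seen at the final sort, so cells with visible eGFP are not part of these values. The sort does not show whether the reporter was active below that limit or at an earlier time. Libraries were made with SMART-Seq2, a method that amplifies full-length cDNA from small amounts of RNA.

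T helper cells take on different effector types according to the cytokines present when they first meet antigen. IL-12 signals through the receptor chains IL-12Rb1 and IL-12Rb2 to STAT4 and, with the transcription factor T-bet (gene Tbx21), directs naive cells to the Th1 type, which makes interferon gamma and acts against intracellular microbes. IL-6 signals through STAT3, and with IL-1b and IL-23 directs cells to the Th17 type, which makes IL-17A, IL-17F and IL-22 and acts at mucosal surfaces such as the gut. Both types take part in intestinal inflammation, which the series concerns. The comparison asks how the transcripts of cells from these cultures differ when neither shows eGFP at the sort.

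In the 5 libraries, 7912 to 8384 genes reached 1 TPM, and the libraries correlated with each other at r = 0.926 to 0.973 across genes. The T cell genes were present in both groups. Of 10 tested members of their list, 2 were called higher in IL-12 cells and 0 lower, against 2.75% and 1.8% of all genes. Cd2 had 538 and 818 TPM in IL-12 cells, against 292, 268 and 282 TPM (limma adjusted p = 0.00841). Cd28 had 95.9 and 95.5 TPM, against 31.4, 25.5 and 40.6 TPM (adjusted p = 0.00721). Neither was called in every fit that left out 1 library. Cd4 had 111 and 120 TPM in IL-12 cells, against 101.5, 70.7 and 78.6 TPM in IL-1b+IL-6+IL-23 cells, and the T cell receptor constant gene Trac had 341 and 304 TPM, against 288, 332 and 328 TPM. The B cell genes Cd79a and Ms4a1, the myeloid genes Lyz2 and Csf1r, the natural killer cell genes Ncr1 and Tyrobp and the CD8 gene Cd8a were listed at 0 in all 5. Cd8b1 had 6.73 and 5.37 TPM in IL-12 cells, against 17.4, 7.81 and 10.4 TPM in IL-1b+IL-6+IL-23 cells. Over the lists of other cell types, the summed level was 13.9 and 24.0 TPM for 9 B cell markers in IL-12 cells, against 6.11 to 8.56 TPM in IL-1b+IL-6+IL-23 cells, and 26.5 and 48.2 TPM for 11 erythroid and neutrophil markers, against 11.9 to 15.0 TPM. The sums of 2 other lists were lower in IL-12 cells. The 11 myeloid and dendritic cell markers summed to 5.12 and 5.57 TPM in IL-12 cells, against 7.01 to 14.8 TPM in IL-1b+IL-6+IL-23 cells, and the CD8 T cell markers to 6.73 and 6.66 TPM, against 8.95 to 18.4 TPM. Most of the myeloid sum was Xcr1, with 3.26 and 2.87 TPM in IL-12 cells, against 12.3, 5.15 and 5.69 TPM (adjusted p = 0.201), and Cd68, with 1.21 to 2.52 TPM over the 5 libraries (adjusted p = 0.975). The B cell sum came mostly from Ighm and the erythroid and neutrophil sum from Ly6g, which was the only called member of these lists (20.6 and 42.6 TPM in IL-12 cells, against 5.75, 5.2 and 6.26 TPM; adjusted p = 0.00766). Reads of the Ly6 genes may be shared among near copies. The 11 natural killer cell markers summed to 1.71 and 0 TPM in IL-12 cells, against 3.43, 1.5 and 2.41 TPM, so the groups overlapped. Of these markers, 6 were listed at 0 in all 5 libraries. The tested one was Gzma, with 1.08 and 0 TPM in IL-12 cells, against 1.18, 1.25 and 1.33 TPM (limma adjusted p = 0.411). The part of cells of other types in the results was not tested.

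Of the 8774 genes, 399 (4.55%) differed at an adjusted p under 0.05 by limma on log2(TPM + 1) with Benjamini-Hochberg adjustment. Of all genes tested, 241 (2.75%) were higher in IL-12 cells and 158 (1.8%) were lower. These shares are the background for the counts called in each list below. Differences below are IL-12 minus IL-1b+IL-6+IL-23 on this log2 scale with their standard error (SE), and they understate the change of genes with low levels. The median difference of all genes was 0.11. Median-ratio scaling moved it to -0.001 and gave 158 higher and 199 lower genes, so 44.3% of called genes were higher in IL-12 cells under that scaling, against 60.4% without it. The groups did not overlap for 37.8% of all genes tested. The number of calls rested on single libraries. It was 130 without IL-12 replicate 2, 80 without IL-12 replicate 3, 463 without IL-1b+IL-6+IL-23 replicate 1, 189 without its replicate 2 and 158 without its replicate 3. Each fit without 1 of the IL-12 libraries has a single IL-12 library, which is assumed to vary like the others. A call in all 5 of these fits was made for 70 genes, 35 higher and 35 lower, and such genes are described as held below. With IL-12 replicate 1 included, 6 genes were called, namely Ifng, Ccl4, Nkg7, Il17f, Lum and Il17a, each in the same direction as without it, whereas 66 of the 399 calls took the opposite sign and the median of all genes was -0.49. Separate animals or cultures behind the replicates are not stated in the labels, so p-values measure the spread between these libraries, which may be technical.

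**Figure D1:**
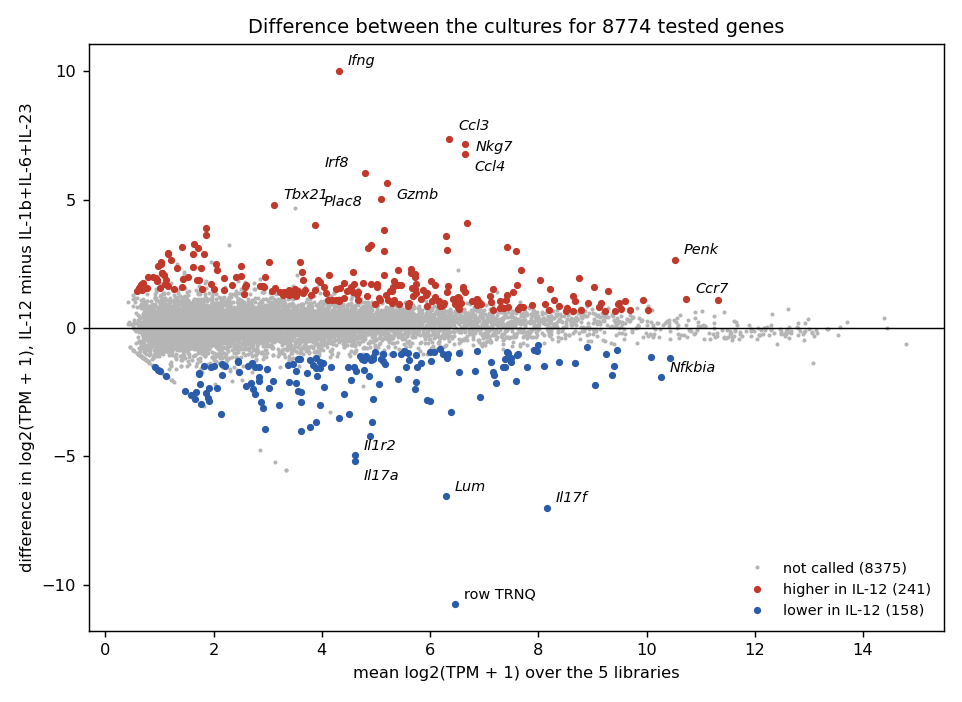
Difference in log2(TPM + 1), IL-12 minus IL-1b+IL-6+IL-23 (vertical axis), against the mean log2(TPM + 1) over the 5 libraries (horizontal axis) for the 8774 tested genes, coloured by call at an adjusted p under 0.05. Ifng stands highest at 10.02, and the row TRNQ and Il17f stand lowest at -10.76 and -7.01.

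Genes of the Th1 program were higher in IL-12 cells. Of 19 tested members of the list, 12 were higher, 0 were lower and 7 were not called, and the median difference was 1.82, against 0.11 for all genes. Ifng, which encodes interferon gamma (chromosome 10, 118441046 to 118445892, GRCm38), had 1121 and 1474 TPM in IL-12 cells, against 0, 0 and 0.9 TPM in IL-1b+IL-6+IL-23 cells. It was high in both IL-12 libraries and at or near 0 in the others, with a difference of 10.02 ± 0.33 (SE; adjusted p = 2.7e-06). In bulk RNA, fewer cells of a type and less RNA per cell cannot be told apart, here and for the genes below. Tbx21, the gene of T-bet, had 49.7 and 79.4 TPM in IL-12 cells, against 1.02, 0.36 and 3.38 TPM (difference 4.80 ± 0.48, adjusted p = 0.000962). Il12rb2, whose product pairs with IL-12Rb1 to bind IL-12, had 114 and 131 TPM in IL-12 cells, against 16.2, 12.9 and 14.7 TPM (2.99 ± 0.21, adjusted p = 0.000138). Lta, the gene of the cytokine lymphotoxin alpha, had 489 and 835 TPM in IL-12 cells, against 66.9, 58.3 and 88.8 TPM (3.17 ± 0.26, adjusted p = 0.000355). Ifng, Tbx21, Il12rb2, Lta, Nkg7, Ccl3 and Ccl4 were the 7 held genes of the list. The other 5 included Il18r1, Fasl, Tnf and Gadd45g. Of these 5, 2 lost the call without IL-12 replicate 2 (adjusted p up to 0.124), all 5 without IL-12 replicate 3 (up to 0.279), and 1, 3 and 3 without IL-1b+IL-6+IL-23 replicates 1, 2 and 3 (up to 0.0582, 0.11 and 0.0725).

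Several Th1 genes did not pass the test. Cxcr3, a chemokine receptor used as a Th1 marker, had 9.29 and 9.28 TPM in IL-12 cells, against 28.9, 15.6 and 15.3 TPM in IL-1b+IL-6+IL-23 cells, so both IL-12 libraries were below the other 3 (-0.97 ± 0.32, adjusted p = 0.138). Stat4 had 25.6 and 22.6 TPM in IL-12 cells, against 13.7, 16.5 and 20.1 TPM (adjusted p = 0.296). The chemokine gene Ccl5 had 270 and 182 TPM in IL-12 cells, against 180, 167 and 175 TPM (adjusted p = 0.368), and was 617 TPM in the left-out IL-12 library. Eomes, a relative of Tbx21, stayed under the filter, at 0.63 and 0 TPM in IL-12 cells, against 0, 0.25 and 0.18 TPM.

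**Figure D2:**
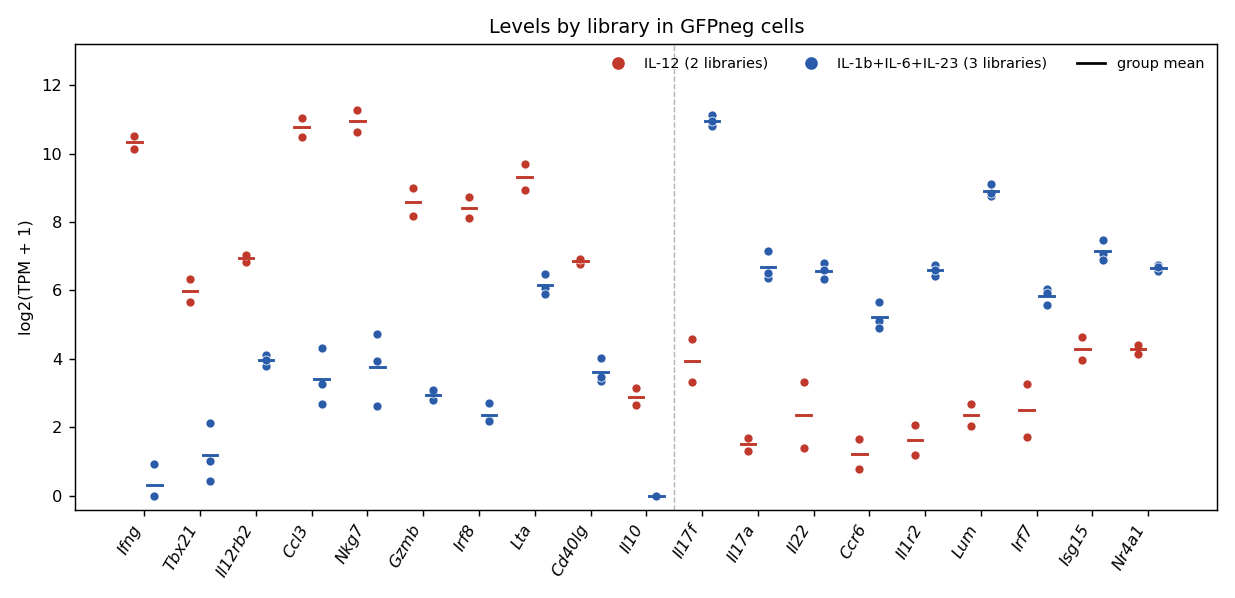
Log2(TPM + 1) of 19 genes in each library, with IL-12 (2 libraries, red) to the left of IL-1b+IL-6+IL-23 (3 libraries, blue) for each gene, and a line at each group's mean. For each of these genes the libraries of the 2 cultures do not overlap, with the genes left of the dashed line higher in IL-12 cells and those right of it lower. All 19 were chosen from the called genes, and the cultures do not overlap for 37.8% of all genes tested.

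Genes of the Th17 program were lower in IL-12 cells. Of 16 tested members, 10 were lower and 1, Irf4, was higher, and the median difference was -1.81. Il17f (chromosome 1, 20777146 to 20790617) had 23.1 and 8.94 TPM in IL-12 cells, against 1775, 2233 and 1988 TPM in IL-1b+IL-6+IL-23 cells (-7.01 ± 0.32, adjusted p = 1.31e-05). Its mean in IL-1b+IL-6+IL-23 cells was 125 times that in IL-12 cells. Il17a, its neighbour on the same chromosome (20730905 to 20734496), had 2.25 and 1.50 TPM in IL-12 cells, against 81.6, 89.8 and 142 TPM (-5.17 ± 0.29, adjusted p = 2.84e-05). In these reporter-negative IL-1b+IL-6+IL-23 cells the Il17f level was thus above the Il17a level in each of the 3 libraries, both per length. Il22, a cytokine gene that acts on epithelial cells, had 9.04 and 1.64 TPM in IL-12 cells, against 110, 96.3 and 80.3 TPM (-4.22 ± 0.48, adjusted p = 0.002). Iltifb, a near copy of Il22 that may share its reads, was listed at 0 in IL-12 cells and at 1.15, 5.52 and 1.46 TPM in IL-1b+IL-6+IL-23 cells. Il24, of the same cytokine family, had 19.1 and 23.9 TPM in IL-12 cells, against 83.9, 117 and 87.6 TPM (-2.10 ± 0.22, adjusted p = 0.00145).

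Of the receptor genes of the Th17 list, Ccr6 and Il23r were called lower and Il1r1 was not called. Ccr6, a chemokine receptor of Th17 cells, had 2.13 and 0.71 TPM in IL-12 cells, against 33.3, 29.2 and 49.9 TPM (-4.02 ± 0.35, adjusted p = 0.000466). Il23r itself had 1.50 and 0 TPM in IL-12 cells, against 7.33, 6.02 and 7.56 TPM (-2.33 ± 0.42, adjusted p = 0.0176), although both groups were sorted as GFPneg. The reporter row EGFP_IRES_IL23R, whose sequence may share reads with Il23r, had 0.7 and 1.23 TPM in IL-12 cells, against 0, 1.53 and 1.74 TPM (adjusted p = 0.982). Il17a, Il17f, Il22, Il24 and Ccr6 were among the held genes, whereas Il21, Rora, Batf, Irf4 and Il23r were not. Of these 5, 3 lost the call without IL-12 replicate 2 (adjusted p up to 0.12), all 5 without IL-12 replicate 3 (up to 0.235), Il23r without IL-1b+IL-6+IL-23 replicate 2 (0.0735), and Il21 and Il23r without its replicate 3 (0.0902 for both). The call of Il23r was also lost with a pseudocount of 0.1 (0.0759) and with no filter on low values (0.0651), and that of Il21 with no filter (0.0571) and without the trend of the spread on level (0.0612). Il1r1, the signalling IL-1 receptor, was listed at 0 in both IL-12 libraries, against 1.06, 1.40 and 0.95 TPM (adjusted p = 0.105). Hif1a, a hypoxia-response transcription factor that takes part in Th17 differentiation, had 99.1 and 92.9 TPM in IL-12 cells, against 146, 156 and 163 TPM (-0.68 ± 0.16, adjusted p = 0.0522), and was called under median-ratio scaling (adjusted p = 0.0338). Stat3 had 50.5 and 51.7 TPM, against 81.9, 67.7 and 79.8 TPM (adjusted p = 0.139).

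The bases upstream of the 3 cytokine genes that carry this contrast are shown because both Il17 genes share a short motif there. Each is the 250 bases before the gene's first start in RefSeq (GRCm38.p6), 5' to 3' on the gene's strand, at chr10:118440796-118441045 (plus strand) for Ifng, chr1:20730655-20730904 (plus strand) for Il17a and chr1:20784271-20784520 (minus strand) for Il17f. The start used for Il17f lies within the longer gene span of GENCODE given above. Capitals mark TTCNNNGAA, the core bound by STAT proteins, in Ifng, and AGGTCA, a half-site bound by nuclear receptors, in the Il17 genes. Both strands were searched.

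Ifng: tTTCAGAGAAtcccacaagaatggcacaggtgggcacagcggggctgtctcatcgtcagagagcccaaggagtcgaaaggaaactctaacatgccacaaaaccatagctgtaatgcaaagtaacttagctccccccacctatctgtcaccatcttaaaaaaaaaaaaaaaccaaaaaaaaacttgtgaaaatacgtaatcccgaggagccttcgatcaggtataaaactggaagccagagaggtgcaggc
Il17a: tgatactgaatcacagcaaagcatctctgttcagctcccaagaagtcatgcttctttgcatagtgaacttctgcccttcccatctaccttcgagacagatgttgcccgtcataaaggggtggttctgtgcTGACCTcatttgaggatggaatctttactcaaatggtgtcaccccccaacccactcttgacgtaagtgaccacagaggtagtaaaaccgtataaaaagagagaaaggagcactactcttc
Il17f: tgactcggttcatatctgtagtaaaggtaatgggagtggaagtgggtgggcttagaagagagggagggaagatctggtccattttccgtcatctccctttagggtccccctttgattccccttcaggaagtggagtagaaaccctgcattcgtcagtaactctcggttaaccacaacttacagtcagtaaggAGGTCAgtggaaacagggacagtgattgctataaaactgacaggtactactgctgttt

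The AGGTCA match lies at -120 to -115 in Il17a, on the opposite strand, and at -58 to -53 in Il17f, counted from the start. Of the 10 Th17 genes lower in IL-12 cells, 8 had a window in the RefSeq table and 4 of these held the motif (Il17a, Il17f, Il23r and Ccr6), against 13.8% of 27025 genes with a window, 13.3% of the called higher genes and 13.7% of the called lower genes. Hif1a and Ccl20, members of the list that were not called lower, held it too. TTCNNNGAA lies at -249 to -241 in Ifng. It stood in 4 of 10 higher Th1 genes with a window (Ifng, Il12rb2, Nkg7 and Lta), against 7.18% of all windows, 11.1% of those of called higher genes and 6.84% of those of called lower genes. A T-box half-site, AGGTGTGA, was searched as well and stood in 1 of these 10 (Nkg7). It stood in 1.14% of all windows, 3.33% of those of called higher genes and 1.71% of those of called lower genes. Matches to such short motifs are descriptions of the letters, and binding was not measured.

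Chemokine and cytotoxic genes were also among the large rises. Their lists share Ccl3, Ccl4, Nkg7 and Fasl with the Th1 list, so these genes are counted again here. Of 10 tested chemokine genes, 4 were higher and 0 lower, against 2.75% and 1.8% of all genes. Ccl3, the gene of an inflammatory chemokine, had 1422 and 2119 TPM in IL-12 cells, against 5.43, 8.6 and 18.8 TPM in IL-1b+IL-6+IL-23 cells (7.34 ± 0.42, adjusted p = 2.91e-05). Its neighbour Ccl4, with a related product, had 1327 and 2093 TPM in IL-12 cells, against 8.71, 15.6 and 21.4 TPM (6.77 ± 0.34, adjusted p = 2.02e-05). Both were held. Ccl1 lost the call without IL-12 replicate 2 (adjusted p = 0.0773), and Xcl1 without IL-12 replicate 3 (0.117) and without IL-1b+IL-6+IL-23 replicates 2 and 3 (0.0735 and 0.0725). Of 10 tested cytotoxic and natural killer receptor genes, 6 were higher and 0 lower, with a median of 1.99. Nkg7, a membrane protein of cytotoxic granules, had 1574 and 2477 TPM in IL-12 cells, against 5.23, 14.5 and 25.5 TPM (7.17 ± 0.51, adjusted p = 0.000141). Gzmb, the gene of the protease granzyme B, had 290 and 509 TPM in IL-12 cells, against 5.91, 6.95 and 7.48 TPM (5.64 ± 0.27, adjusted p = 1.35e-05). Serpinb9, whose product inhibits granzyme B in the cell that makes it, had 189 and 156 TPM in IL-12 cells, against 11.7, 9.94 and 12.4 TPM (3.81 ± 0.21, adjusted p = 2.84e-05). The related Serpinb6b had 383 and 316 TPM, against 32.7, 25.7 and 26.3 TPM (3.59 ± 0.20, adjusted p = 2.84e-05), and the separate values of these near copies are uncertain. Prf1, the gene of the pore protein perforin, stayed under the filter at 0.39 and 0.78 TPM in IL-12 cells and was listed at 0 in the other 3 libraries. Srgn, the gene of the granule proteoglycan serglycin, had 2918 and 2504 TPM in IL-12 cells, against 2635, 3306 and 3616 TPM (adjusted p = 0.481). Gzmb, Nkg7, Serpinb6b and Serpinb9 were held. Fasl and Ctsw each lost the call without IL-12 replicate 3 and without IL-1b+IL-6+IL-23 replicates 2 and 3, and Ctsw also without IL-12 replicate 2 (adjusted p up to 0.265).

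The cytokine genes moved in both directions. Of 21 tested, 4 were higher (Ifng, Lta, Tnf and Il10) and 6 were lower (Il17f, Il17a, Il22, Il24, Il21 and Il1rn). Il10, the gene of an anti-inflammatory cytokine, had 7.90 and 5.26 TPM in IL-12 cells and was listed at 0 in all 3 IL-1b+IL-6+IL-23 libraries (2.90 ± 0.33, adjusted p = 0.002). The left-out IL-12 library listed Il10 at 0 as well. Il1rn, the gene of the IL-1 receptor antagonist, had 0.33 and 0 TPM in IL-12 cells, against 7.15, 7.11 and 7.84 TPM (-2.86 ± 0.31, adjusted p = 0.00156). Il2, the T cell growth factor gene, had 994 and 1128 TPM in IL-12 cells, against 712, 373 and 789 TPM (0.83 ± 0.29, adjusted p = 0.159). Csf2, the GM-CSF gene, was listed at 0 in all 5 libraries. Of the 10 called cytokine genes, 8 were held. Il21 lost the call without IL-12 replicate 2, IL-12 replicate 3 or IL-1b+IL-6+IL-23 replicate 3 (adjusted p 0.12, 0.235 and 0.0902), and Tnf without IL-12 replicate 3 (0.115).

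In a list known as the pathogenic Th17 signature, calls went in both directions. Of the 13 tested, 11 had positive and 2 had negative differences, against 5197 positive of all 8774 genes tested. Of its 13 tested members, 4 were higher in IL-12 cells (Ccl3, Ccl4, Gzmb and Tbx21), and 2 were lower (Il22 and Lgals3, the gene of galectin-3). The 4 higher genes are known from Th1 and cytotoxic cells too, and the median of the list was 0.67. Lgals3 had 13 and 12.1 TPM in IL-12 cells, against 57.3, 43.2 and 87.7 TPM in IL-1b+IL-6+IL-23 cells (-2.18 ± 0.30, adjusted p = 0.00488), and it lost the call without IL-12 replicate 2 or 3 (adjusted p = 0.0713 and 0.0968).

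Among 25 tested cytokine receptor genes, 5 were higher and 3 lower, against 2.75% and 1.8% of all genes. Il1r2, a decoy receptor that binds IL-1 without passing on a signal, had 3.19 and 1.27 TPM in IL-12 cells, against 106, 85.2 and 95.6 TPM in IL-1b+IL-6+IL-23 cells (-4.97 ± 0.29, adjusted p = 3.69e-05). The ligand-binding IL-10 receptor gene Il10ra had 10.1 and 7.74 TPM in IL-12 cells, against 0, 0 and 0.39 TPM (3.14 ± 0.34, adjusted p = 0.00151). The 2 chains of the interferon gamma receptor moved in opposite directions. Ifngr1, the ligand-binding chain, had 38.2 and 42.0 TPM in IL-12 cells, against 7.15, 7.36 and 13 TPM (2.06 ± 0.30, adjusted p = 0.0063), and Ifngr2, the second chain, had 3.38 and 1.17 TPM, against 17.3, 14.7 and 12 TPM (-2.33 ± 0.36, adjusted p = 0.00841). Il12rb2, Il1r2 and Il10ra were held. Of the others, 3 lost the call without IL-12 replicate 2 (adjusted p up to 0.124), 5 without IL-12 replicate 3 (up to 0.235), and 4 and 3 without IL-1b+IL-6+IL-23 replicates 2 and 3 (up to 0.0771 and 0.0902). Ifngr1 was among those lost without either IL-12 library, and Ifngr2 among those lost without IL-12 replicate 3 or IL-1b+IL-6+IL-23 replicate 2. Of 19 tested JAK-STAT and feedback genes, Socs2 was higher and Stat5a lower, against 2.75% and 1.8% of all genes, and neither was held. Stat5a, a transcription factor of IL-2 signalling, had 105 and 115 TPM in IL-12 cells, against 319, 222 and 223 TPM (-1.19 ± 0.20, adjusted p = 0.0135). Socs3, an inhibitor induced by STAT3, had 12 and 15.2 TPM in IL-12 cells, against 18, 14.6 and 13.5 TPM (adjusted p = 0.78). Both calls were lost without IL-12 replicate 2 (adjusted p up to 0.14), IL-12 replicate 3 (up to 0.233) or IL-1b+IL-6+IL-23 replicate 3 (up to 0.0577), and Socs2 also without its replicate 2 (0.0747). Stat5a also lost the call without the trend of the spread on level (0.0797).

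Of 25 tested lineage and effector transcription factors, 5 were higher (Irf8, Tbx21, Irf4, Irf1 and Batf3) and 6 were lower (among them Rora, Tcf7, Id2, Id3 and Batf). Irf8, an interferon-regulatory factor, had 278 and 419 TPM in IL-12 cells, against 3.62, 5.60 and 3.58 TPM in IL-1b+IL-6+IL-23 cells (6.04 ± 0.28, adjusted p = 1.31e-05), a rise above that of Tbx21. The 2 BATF genes moved in opposite directions. Batf, an AP-1 factor needed for Th17 cells, had 151 and 142 TPM in IL-12 cells, against 478, 443 and 338 TPM (-1.50 ± 0.18, adjusted p = 0.00272), and Batf3 had 100.4 and 115 TPM, against 36.0, 32.2 and 29.8 TPM (1.69 ± 0.19, adjusted p = 0.00214). Irf4, the partner factor of BATF, had 50.4 and 46.3 TPM in IL-12 cells, against 13.7, 13 and 15.5 TPM (1.71 ± 0.22, adjusted p = 0.00319). Id2, an inhibitor of E proteins, had 73.4 and 61.1 TPM in IL-12 cells, against 231, 268 and 228 TPM (-1.84 ± 0.17, adjusted p = 0.000703). Tbx21, Irf8 and Id2 were among the 4 held. Of the other 7, 4 lost the call without IL-12 replicate 2 (adjusted p up to 0.121), all 7 without IL-12 replicate 3 (up to 0.136), and Id3 without IL-1b+IL-6+IL-23 replicate 2 (0.0522). Gata3 and Foxp3, the factors of Th2 and regulatory T cells, had 7.21 and 6.72 TPM and 1.04 and 2.2 TPM in IL-12 cells, against 7.95, 4.22 and 3.96 TPM and 0.46, 0.24 and 0.82 TPM (adjusted p = 0.603 and 0.284). Maf stayed under the filter, with at most 0.63 TPM.

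Genes of TNF family receptors and ligands were mostly higher where called. Of 22 tested, 7 were higher (Cd40lg, Lta, Tnfrsf18, Tnfrsf9, Tnf, Tnfrsf4 and Fasl) and 1 was lower, against 2.75% and 1.8% of all genes. Cd40lg, the ligand through which T cells activate B cells and macrophages, had 109 and 121 TPM in IL-12 cells, against 9.14, 10.1 and 15.3 TPM in IL-1b+IL-6+IL-23 cells (3.24 ± 0.26, adjusted p = 0.000306). Tnfrsf18, the gene of GITR, had 1127 and 1172 TPM in IL-12 cells, against 479, 372 and 413 TPM (1.45 ± 0.15, adjusted p = 0.00132). The lower gene was Tnfrsf25, the gene of the receptor DR3, with 36.1 and 54.7 TPM in IL-12 cells, against 185, 121 and 146 TPM (-1.72 ± 0.25, adjusted p = 0.0063). Tnfrsf18, Lta and Cd40lg were held. Of the other 5, 2 lost the call without IL-12 replicate 2 (Tnfrsf4 and Tnfrsf25, adjusted p up to 0.0941), 4 without IL-12 replicate 3 (Tnfrsf4, Tnfrsf9, Tnf and Fasl, up to 0.173), and 1 and 2 without IL-1b+IL-6+IL-23 replicates 2 and 3 (up to 0.0849 and 0.0708). Tnfrsf4 also lost the call without the trend of the spread on level (0.0882), and Fasl with a pseudocount of 0.1 (0.0681). Of 10 tested co-inhibitory genes, Il10 was the single called one, against 4.55% called of all genes. Pdcd1, the gene of PD-1, had 61.3 and 71.7 TPM in IL-12 cells, against 67.4, 41.6 and 76.5 TPM (adjusted p = 0.826), and Cd160 was listed at 0 in all 5 libraries.

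Of 2 lists of genes known to be induced by interferons, one had more calls higher and the other more calls lower in IL-12 cells, and most members of each were not called. The difference between the lists was not tested. Of 19 tested interferon gamma-induced genes, 5 were higher in IL-12 cells and 1 was lower, with a median of 0.66. Igtp, an interferon-inducible GTPase, had 602 and 543 TPM in IL-12 cells, against 152, 136 and 182 TPM in IL-1b+IL-6+IL-23 cells (1.87 ± 0.17, adjusted p = 0.000612), and was the held gene of the list. Gbp2, a guanylate-binding protein, had 192 and 175 TPM in IL-12 cells, against 69.8, 48.8 and 73.1 TPM (1.53 ± 0.22, adjusted p = 0.00593), and Irf1 had 64.8 and 55.4 TPM, against 21, 13 and 20.3 TPM (1.70 ± 0.26, adjusted p = 0.00838). The lower gene was Ido1, which encodes a tryptophan-degrading enzyme, with 0.56 and 0 TPM in IL-12 cells, against 6.73, 4.54 and 8.15 TPM (-2.55 ± 0.37, adjusted p = 0.0063). B2m, the light chain of MHC class I, had 8424 and 7071 TPM in IL-12 cells, against 7947, 11078 and 9995 TPM (adjusted p = 0.317). Without IL-12 replicate 2, Irf1, Gbp2, Gbp6 and Psmb9 lost the call (adjusted p up to 0.207), and without IL-12 replicate 3 these and Ido1 did (up to 0.105). Without the trend of the spread on level, Gbp6 and Psmb9 were lost (0.0625 and 0.0735). Gbp6 also lost it without IL-1b+IL-6+IL-23 replicate 2 (0.0909), and Gbp6 and Psmb9 without its replicate 3 (up to 0.105). With IL-12 replicate 1 included, the median of the list was -0.23 and the difference of Gbp2 was -0.50.

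Of 20 tested type I interferon-stimulated genes, 7 were lower in IL-12 cells and 2 were higher, and the median was -1.10. Irf7, which drives type I interferon genes, had 8.61 and 2.32 TPM in IL-12 cells, against 64.7, 47.1 and 59.2 TPM in IL-1b+IL-6+IL-23 cells (-3.35 ± 0.41, adjusted p = 0.00272). Isg15, a ubiquitin-like modifier, had 23.7 and 14.5 TPM in IL-12 cells, against 134, 117 and 177 TPM (-2.85 ± 0.27, adjusted p = 0.000629). Ifit1, which binds viral RNA, had 2.98 and 3.86 TPM in IL-12 cells, against 17.0, 16.3 and 20.3 TPM (-2.10 ± 0.26, adjusted p = 0.00317), and Rtp4 was listed at 0 in both IL-12 libraries, against 4.66, 7.71 and 5.32 TPM (-2.76 ± 0.33, adjusted p = 0.00268). The 2 higher genes were Ifitm2 and Ifitm3, of the interferon-induced transmembrane proteins. Ifitm3 had 668 and 414 TPM in IL-12 cells, against 89.4, 108 and 133 TPM (2.26 ± 0.24, adjusted p = 0.00153). Under median-ratio scaling 8 members were lower and Ifitm3 alone was higher, with Ifitm2 at an adjusted p of 0.0749. Isg15, Ifit1, Irf7, Rtp4 and Ifitm3 were held. Ifitm2 lost the call without IL-12 replicate 2 (adjusted p = 0.12), and Oas1a, Oasl2, Bst2 and Ifitm2 without IL-12 replicate 3 (up to 0.265), where the median of the list was -0.46. Without IL-1b+IL-6+IL-23 replicates 2 and 3, 2 and 3 of these 4 lost it (up to 0.0839 and 0.0725). No interferon was added to either culture, per the labels.

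**Figure D3:**
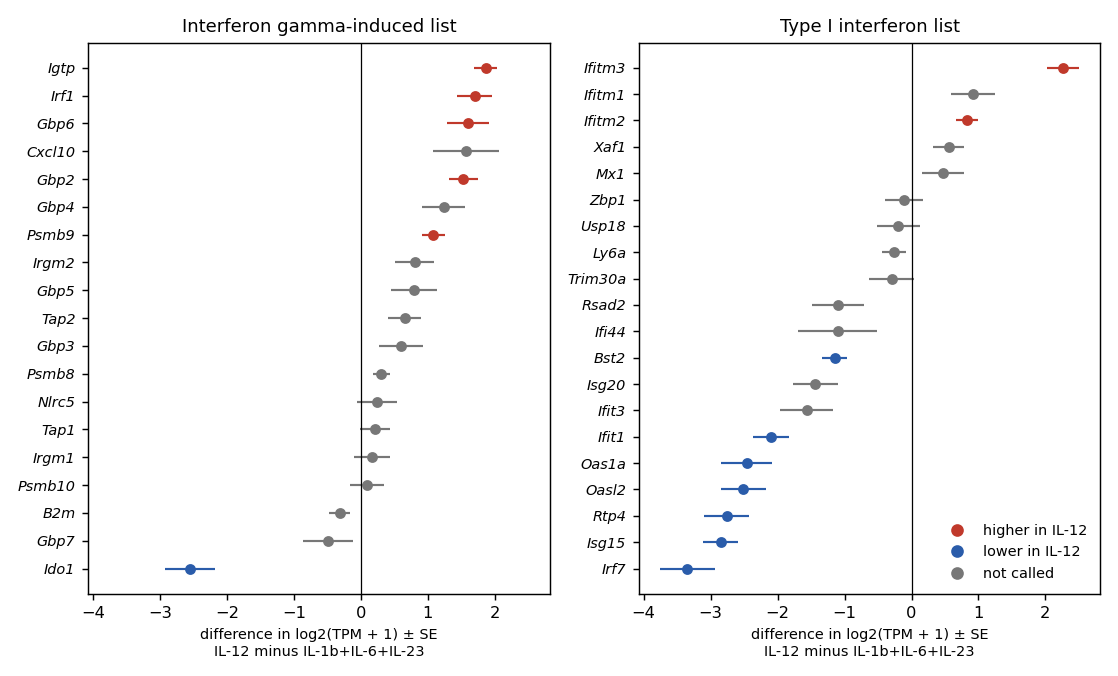
Difference in log2(TPM + 1), IL-12 minus IL-1b+IL-6+IL-23, with its SE for the 19 tested interferon gamma-induced genes (left) and the 20 tested type I interferon-stimulated genes (right), coloured by call. On the left 5 genes were called higher and Ido1 lower, and on the right 7 were called lower and Ifitm3 and Ifitm2 higher.

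The windows upstream of Isg15 and Ifit1, lower in IL-12 cells and held, are shown with the core of the interferon-stimulated response element in capitals, that is GAAA, any 2 bases, and GAAA again. They are the 250 bases before the first RefSeq start (GRCm38.p6), 5' to 3' on the gene's strand, at chr4:156200819-156201068 (minus strand) for Isg15 and chr19:34640639-34640888 (plus strand) for Ifit1, and both strands were searched.

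Isg15: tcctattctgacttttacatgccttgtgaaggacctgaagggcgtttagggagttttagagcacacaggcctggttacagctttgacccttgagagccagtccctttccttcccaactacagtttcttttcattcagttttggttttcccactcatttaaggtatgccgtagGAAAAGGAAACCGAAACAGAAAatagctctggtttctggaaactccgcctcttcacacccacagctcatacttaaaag
Ifit1: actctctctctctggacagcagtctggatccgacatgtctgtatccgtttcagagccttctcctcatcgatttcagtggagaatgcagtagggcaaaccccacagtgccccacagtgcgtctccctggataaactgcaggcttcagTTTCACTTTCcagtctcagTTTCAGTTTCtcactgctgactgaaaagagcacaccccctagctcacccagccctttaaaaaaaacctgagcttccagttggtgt

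In Isg15 there were 3 matches, at -78 to -69, -72 to -63 and -66 to -57, each overlapping the next. In Ifit1 there were 2 on the opposite strand, at -104 to -95 and -85 to -76. The motif stood in 4 of the 6 lower genes with a window (Isg15, Ifit1, Oas1a and Bst2) and in 8 of 15 tested members with one, against 3.04% of all windows. It stood in 9.4% of the windows of called lower genes and in 5.56% of those of called higher genes. Irf7 held 0 matches in its window, which says only that these letters are not there.

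Proliferation genes were higher in IL-12 cells. All 26 tested members had positive differences, as had 5197 of all 8774 genes tested. Of the 26, 10 were called higher and 0 lower, against 2.75% and 1.8% of all genes. The median was 1.11, or 0.98 under median-ratio scaling with the same numbers called. Rrm2, a subunit of ribonucleotide reductase, which makes DNA precursors, had 148 and 165 TPM in IL-12 cells, against 48.0, 58.0 and 45.2 TPM in IL-1b+IL-6+IL-23 cells (1.62 ± 0.19, adjusted p = 0.00243). Pcna, the sliding clamp of DNA replication, had 138 and 135 TPM in IL-12 cells, against 32.4, 49.5 and 46.4 TPM (1.68 ± 0.22, adjusted p = 0.00428), and Cdc20, an activator of the anaphase-promoting complex, had 44.0 and 43.5 TPM, against 15.1, 14.2 and 12.5 TPM (1.59 ± 0.22, adjusted p = 0.00496). Mki67, a common marker of cycling cells, had 2.49 and 1.46 TPM in IL-12 cells, against 0.81, 0.60 and 0.75 TPM (adjusted p = 0.25). None of the 10 calls was held. Without IL-12 replicate 2, 9 were lost (adjusted p up to 0.149), without IL-12 replicate 3 all 10 (up to 0.279), and without IL-1b+IL-6+IL-23 replicates 2 and 3, 5 each (up to 0.106 and 0.0913). With IL-12 replicate 1 included, 0 members were called, the median was -0.01 and the difference of Rrm2 was -0.11.

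Genes of naive and central memory cells moved in both directions, with 3 of 13 tested higher (among them Ccr7 and Dapl1) and 3 lower (Tcf7, Id3 and Igfbp4). Ccr7, a receptor that guides T cells into lymph nodes, had 2833 and 2628 TPM in IL-12 cells, against 1377, 1104 and 1261 TPM in IL-1b+IL-6+IL-23 cells (1.14 ± 0.14, adjusted p = 0.00265). Tcf7, the gene of the transcription factor TCF1, had 19.2 and 15.8 TPM in IL-12 cells, against 89.2, 57.2 and 74.4 TPM (-2.0 ± 0.24, adjusted p = 0.00267). None of the 6 was held. Without IL-12 replicate 2, 5 lost the call (adjusted p up to 0.13), without IL-12 replicate 3 all 6 (up to 0.163), and without IL-1b+IL-6+IL-23 replicates 1, 2 and 3, 1, 2 and 2 (up to 0.0511, 0.0918 and 0.0902). With IL-12 replicate 1 included, the difference of Ccr7 was -0.68, and without the trend of the spread on level its adjusted p was 0.0625. Of 20 tested immediate early genes, which follow T cell receptor signals, 3 were lower and 0 higher, against 1.8% and 2.75% of all genes. Their differences were positive for 8 and negative for 12, with a median of -0.15. The uncalled Nr4a2 had 13.15 and 13.59 TPM in IL-12 cells, against 5.65, 2.71 and 6.23 TPM (1.35 ± 0.35, limma adjusted p = 0.0697). Nr4a1, a marker of recent receptor signalling, had 20.4 and 16.9 TPM in IL-12 cells, against 106, 93.4 and 102 TPM (-2.37 ± 0.19, adjusted p = 0.000332), and Nfkbia, the gene of the NF-kB inhibitor that NF-kB itself induces, had 516 and 598 TPM, against 2362, 1803 and 2144 TPM (-1.91 ± 0.15, adjusted p = 0.000311). Both were held, and Cd69 was not, losing the call without IL-12 replicate 2 or 3 or IL-1b+IL-6+IL-23 replicate 3 (adjusted p = 0.136, 0.124 and 0.0717) or the trend (0.0729).

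Calls in the metabolic lists are set beside the 4.55% called of all genes tested. Of 22 tested glycolysis and hypoxia-response genes, 1 was higher (Hk2) and 2 were lower (Bnip3 and Slc16a3), none held, and the median was 0.05. Each of these 3 lost the call without IL-12 replicate 2 (adjusted p up to 0.213), IL-12 replicate 3 (up to 0.343), or IL-1b+IL-6+IL-23 replicate 2 (up to 0.131) or 3 (up to 0.152). Gapdh had 9039 and 7844 TPM in IL-12 cells, against 9770, 9608 and 9498 TPM (adjusted p = 0.374). Of 23 tested cholesterol synthesis genes, 0 were called, with a median of -0.17. Under median-ratio scaling 3 of these were lower. No member was called among 7 tested TGF-beta response genes, 7 regulatory T cell genes and 5 Th2 genes. With 4.55% of all genes called, the lack of a call in lists this short says little.

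**Figure D4:**
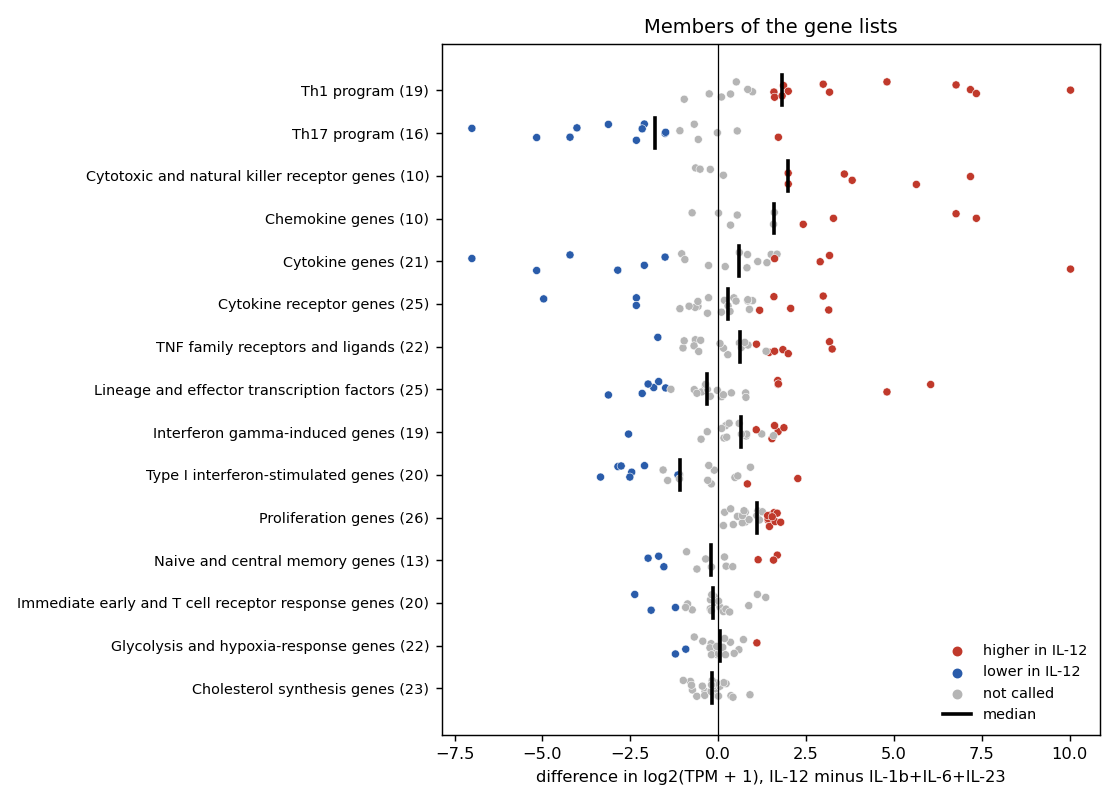
Difference in log2(TPM + 1), IL-12 minus IL-1b+IL-6+IL-23, of each tested member of 15 gene lists (number tested in brackets), coloured by call, with the median of the list as a black line. Medians run between 1.99 for the cytotoxic list and -1.81 for the Th17 list, and points are spread vertically only to be visible.

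Large changes were also seen in genes outside these programs. By a rule on size (adjusted p under 0.05, a difference of at least 1, no overlap and a mean of at least 10 TPM in the higher group), 146 genes were higher and 110 lower. Predicted genes, receptor or immunoglobulin segments and transgene rows were left out of these numbers. Of all genes tested, with none of these left out, 3.84% had an adjusted p under 0.05 and a difference of at least 1. Among the 12 largest rises were Plac8, a small cysteine-rich protein, with 354 and 214 TPM in IL-12 cells, against 6.46, 6.81 and 9.64 TPM in IL-1b+IL-6+IL-23 cells (5.02 ± 0.28, adjusted p = 2.84e-05), and Crabp2, which carries retinoic acid to the nucleus, with 607 and 524 TPM, against 27.5, 32.0 and 37.0 TPM (4.10 ± 0.19, adjusted p = 1.31e-05). Cd83, a surface protein of activated lymphocytes and dendritic cells, had 81.9 and 71.7 TPM in IL-12 cells, against 4.96, 2.19 and 4.72 TPM (4.02 ± 0.32, adjusted p = 0.000309). Mt3, a metal-binding metallothionein, had 15.2 and 19.7 TPM in IL-12 cells, against 0, 0 and 0.87 TPM (3.89 ± 0.38, adjusted p = 0.000885). All 12 largest rises were held, but they were chosen by size and call in these same libraries, so this is no independent support. With IL-12 replicate 1 included, 9 of the 12 lost the call, among them Irf8, Gzmb, Tbx21 and Crabp2 (limma adjusted p up to 0.863).

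Among the largest falls, Lum, the gene of the matrix proteoglycan lumican (chromosome 10, 97565128 to 97572703), had 5.42 and 3.09 TPM in IL-12 cells, against 435, 457 and 551 TPM in IL-1b+IL-6+IL-23 cells (-6.55 ± 0.24, adjusted p = 2.7e-06), a mean 113 times higher in IL-1b+IL-6+IL-23 cells. Timd2, a surface receptor of the TIM family, had 1.6 and 1.96 TPM in IL-12 cells, against 37.0, 40.0 and 40.9 TPM (-3.86 ± 0.24, adjusted p = 5.27e-05). Upp1, a uridine-degrading enzyme, had 7.60 and 4.14 TPM in IL-12 cells, against 86.4, 81.4 and 80.2 TPM (-3.65 ± 0.26, adjusted p = 0.000141). Lmna, the gene of the nuclear lamina proteins lamin A and C, had 3.35 and 1.46 TPM in IL-12 cells, against 51.0, 31.3 and 40.2 TPM (-3.65 ± 0.33, adjusted p = 0.000556). Gmfg, a regulator of branched actin, fell by 3.52 ± 0.27 on the log2 scale (adjusted p = 0.000215), and Gap43, a growth-associated protein known from neurons, fell by 3.92 ± 0.54 (adjusted p = 0.00488). Gap43 was the member of the 12 that was not held, losing the call without IL-12 replicate 2 (difference -3.32). The 12 falls were chosen in the same way as the rises, and 9 lost the call with IL-12 replicate 1 included. The lowest value belonged to the row TRNQ, which was listed at 0 in both IL-12 libraries, against 1118, 3160 and 1465 TPM (-10.76 ± 0.38, adjusted p = 2.7e-06). The table gives this row by name only, which matches the RefSeq symbol TrnQ. The row was 3642 TPM in the left-out IL-12 library, so this fall is not a property of every IL-12 library. The rows TRNA and TRNE had equal values in each of the 5 libraries, with 225 and 455 TPM in IL-1b+IL-6+IL-23 replicates 2 and 3. Levels of such rows are therefore uncertain.

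Levels in the other reporter-negative cultures place these genes. They are given as descriptions, over the 2 libraries of TGFb+IL-6 and the 2 of IL-12+IL-21 with at least 7000 genes at 1 TPM. Ifng had 1121 and 1474 TPM with IL-12, 231 and 131 TPM with IL-12+IL-21, at most 0.9 TPM in IL-1b+IL-6+IL-23 cells and 0 in both TGFb+IL-6 libraries. Il17f was higher still with TGFb+IL-6, at 4744 and 3552 TPM, and had 1.70 and 0.59 TPM with IL-12+IL-21. Lum did not follow Il17f, with 1.2 and 2.45 TPM with TGFb+IL-6 and 35.3 and 28.8 TPM with IL-12+IL-21. Il1r2 and Il22, too, were at 5.89 and 6.93 TPM and at 0 and 0.94 TPM with TGFb+IL-6, far below their levels with IL-1b+IL-6+IL-23. Isg15 had 78.1 and 90.2 TPM with IL-12+IL-21 and 5.99 and 8.21 TPM with TGFb+IL-6, so the IL-12 level of 23.7 and 14.5 TPM lay between them. Crabp2 had 662 and 508 TPM with IL-12+IL-21, close to its levels with IL-12, and 37.7 and 51.1 TPM with TGFb+IL-6.

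**Figure D5:**
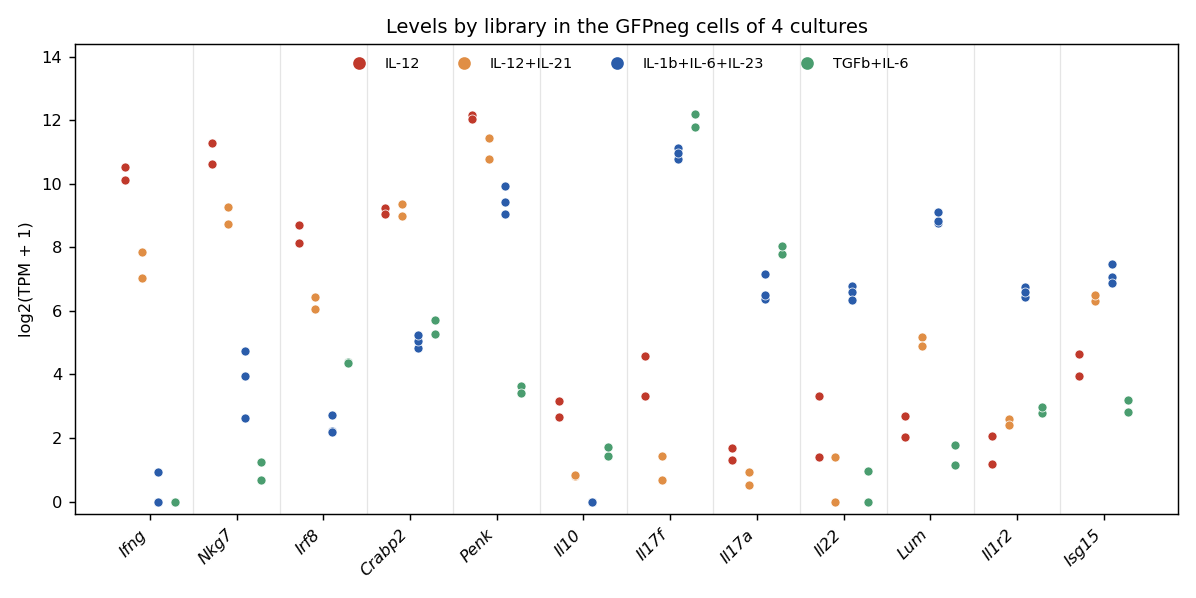
Log2(TPM + 1) of 12 genes in each reporter-negative library of 4 cultures. From left to right within each gene stand IL-12, then IL-12+IL-21, next the culture in IL-1b+IL-6+IL-23, and last TGFb+IL-6. Lum, Il1r2 and Il22 stand apart in the IL-1b+IL-6+IL-23 libraries, whereas Il17f and Il17a are high with TGFb+IL-6 as well.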

How the data were processed

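Per the labels' protocols, full-length SMART-Seq2 libraries were sequenced from both ends. RSEM 1.2.31, Bowtie2 2.2.9, Trimmomatic 0.32 and the build GRCm38 are named, per the submitters' processing notes. Settings, annotation and use of strand: not given in the sources used here. TPM values were deposited by the authors in 1 table of gene symbols. TPM sums to the same total in each library and keeps no depth, so the depth is unknown and no counting interval can be given. Since an exact 0 may come from an estimate that failed, the text says listed at 0. As shares, TPM values of some genes rise when others fall. Near copies and overlapping genes may share reads. Some members counted in the lists are not reported here by name.

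Columns were tied to samples by name, and 0 columns lacked a sample. Symbols were matched to GENCODE M21 (22434 rows) and RefSeq (477 by symbol, 443 by synonym), and 61 stayed unmatched. limma 3.58.1 in R 4.3.3 was fitted to log2(TPM + 1) of the 5 libraries, with group means, an empirical Bayes trend and Benjamini-Hochberg adjustment over 8774 genes, and was tested on simulated data. The 34 gene lists are described by counts and medians. Lists share members, and a gene counts in each list that holds it. The named genes were the 12 largest rises and falls under the size rule, up to 5 tested members per list with the smallest adjusted p, and a fixed set of cytokine, receptor and transcription factor genes; from these 138 the text gives a part. Members named outside the rule (such as Cxcr3, Stat4, Ccl5, Il2, Srgn, Prf1, B2m, Gapdh, Pdcd1, Mki67 and Iltifb) were chosen after their values were seen. The comparison, the lists and the rule were chosen with earlier results of these data known. Promoter windows and motifs were also chosen after the calls were known.

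Results were recomputed with a pseudocount of 0.1 or 5, without a filter on low values, at a minimum of 5 TPM, under median-ratio and quantile scaling, with the spread of 16 libraries, with IL-12 replicate 1, with a block for the replicate number, with array weights, without the trend and without each library.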

Additional observations from a re-analysis of the deposited data

How the results depend on the processing

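The 399 calls (241 higher and 158 lower in IL-12 cells) fell to 232 (138 higher, 94 lower) with no filter on low values and to 216 (123 and 93) without the trend of the spread on level. They were 716 (452 and 264) with the spread taken from 16 libraries and, in a setting chosen after seeing the data, 792 (367 and 425) with median-ratio scaling added to it. Median-ratio scaling alone gave 158 higher and 199 lower. With IL-12 replicate 1 included, 6 genes were called (3 and 3). The replicate numbers were not shown to pair the samples, since deviations of same-numbered samples correlated at -0.001 and 0.09, and with the number as a block 693 were called (457 and 236), with Il2 (adjusted p = 0.00641), B2m (0.00888), Iltifb (0.023), Hif1a (0.0262) and Ighm (0.043) added among the genes named. Leaving out 1 library at a time gave 80 to 463 calls, 38 to 310 higher and 42 to 153 lower. Pseudocounts of 0.1 and 5, a minimum of 5 TPM, quantile normalization and array weights kept the number called within 1.5 times. Beside the losses given with the genes, Bst2, Bnip3, Ifitm2, Ctsw, Slc16a3 and Hk2 lost the call without the trend (adjusted p up to 0.129). Gbp6, Ctsw, Slc16a3 and Hk2 lost it with no filter (up to 0.091), Dapl1, Ctsw, Slc16a3 and Hk2 at a pseudocount of 0.1 (up to 0.154), Ctsw at a minimum of 5 TPM (0.0687), and Hk2 under median-ratio (0.0529) and quantile scaling (0.0501). Quantile scaling also lost Ifitm2 (0.052) and added Stat3 (0.033) and Hif1a (0.0205).

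Values that changed sign are differences in log2(TPM + 1). With IL-12 replicate 1 included they were -0.11 for Rrm2, -0.68 for Ccr7, -0.50 for Gbp2, -0.42 for Il2, -0.52 for Cd4, -0.83 for Stat4, -0.22 for Gata3, -1.17 for Pdcd1, -1.12 for Trac and -0.29 for the row EGFP_IRES_IL23R. Near 0 in the main comparison, Trac, that row, Pdcd1 and Cd68 turned elsewhere too. Trac was -0.11 under median-ratio scaling with either spread, -0.20 under quantile normalization and -0.037 with the block. The row EGFP_IRES_IL23R was -0.019 at a pseudocount of 5, -0.045 under median-ratio scaling and -0.044 with 16 libraries added, -0.024 under quantile normalization, -0.44 with the block and -0.16 with array weights. Pdcd1 was -0.085 under quantile normalization. Cd68 (0.03 as reported) was -0.13 with IL-12 replicate 1 included, -0.052 under median-ratio scaling and -0.051 with 16 libraries added, -0.01 under quantile normalization and with array weights, and -0.017 with the block. Without 1 library at a time, Trac ranged from -0.056 to 0.11, the row EGFP_IRES_IL23R from -0.44 to 0.29, Pdcd1 from -0.11 to 0.32 and Cd68 from -0.13 to 0.22. The cause of these changes was not tested.

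TPM does not give read depth, no counting interval is given, and the spread rests on 2 libraries against 3.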

Other observations

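Penk, the gene of the opioid peptide precursor proenkephalin, had 4629 and 4250 TPM in IL-12 cells, against 965, 528 and 682 TPM in IL-1b+IL-6+IL-23 cells (difference 2.66 ± 0.23 SE, limma adjusted p = 0.000378). In the kept libraries of the other reporter-negative cultures Penk had 2751 and 1742 TPM with IL-12+IL-21, and 11.4 and 9.63 TPM with TGFb+IL-6. Dcn, the gene of the proteoglycan decorin, was listed at 0 in both IL-12 libraries, against 4.46, 4.46 and 4.34 TPM (-2.44 ± 0.31, adjusted p = 0.00305). Inhba, which encodes a subunit of activin, had 56.4 and 64.5 TPM in IL-12 cells, against 272, 198 and 357 TPM (-2.13 ± 0.25, adjusted p = 0.00216). Inhba lost the call without IL-12 replicate 2 (adjusted p = 0.0513) or 3 (0.0501), and Penk had 872 TPM in the left-out IL-12 library. These 3 genes were chosen after their values were seen.

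The row TDTOMATO had 5.32 and 1.18 TPM in IL-12 cells, against 28.6, 26.1 and 24.7 TPM in IL-1b+IL-6+IL-23 cells (-2.89 ± 0.42, adjusted p = 0.0063). The labels used here name eGFP and no such reporter, and what the row holds was not analysed here.

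The 41 rows with names beginning in TRN summed to 7367 and 3756 TPM in IL-12 cells, against 10048, 17216 and 21503 TPM in IL-1b+IL-6+IL-23 cells, and to 9264 TPM in the left-out IL-12 library. Of the 6 tested, 0 were higher and 1, the row TRNQ, was lower.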
